A study of Mus musculus with 6 samples.

Results

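The imprinted growth network genes studied here were H19, Igf2, Dlk1, Meg3, Rian, Mirg, Peg3, Plagl1, Grb10 and Mest, taken by gene name from the RNA-seq tables. All 10 were found among the 55421 genes listed. Their levels were compared between control DM1 myoblasts and miR-322/-503 overexpressing DM1 myoblasts on day 4 of differentiation, with 3 libraries in each group. All libraries came from C2C12, an established line of mouse myoblasts whose cells stop dividing and fuse to myotubes in low-serum medium, here with added insulin. Both groups carried the plasmid pCDNA3-GFP-(CUG)200, in which expanded repeats at the 3' end of a GFP transcript model myotonic dystrophy type 1 (DM1). The control group carried the empty pLL4.0 vector, which confers puromycin resistance, and the other group carried the same vector with a miR-322/-503 fragment. Each group was 1 selected stable line, so an effect of the microRNAs and a difference between the lines cannot be told apart. The labels do not say whether the libraries of a group came from separate cultures, and the p-values measure the spread between these libraries only.

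Imprinted genes are expressed from the copy inherited from only one parent, according to DNA methylation marks set in the egg or the sperm. Many of them act on growth, and their levels are known to move together in growing tissues. H19 and Igf2 lie side by side and share enhancers beyond H19, and the factor Ctcf, bound between them on the maternal copy, keeps those enhancers from Igf2, so that H19 comes from the maternal and Igf2 from the paternal copy. Igf2 is a secreted growth factor that myoblasts make and respond to when they differentiate. These measurements do not separate the parental copies.

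The overexpressed microRNAs are shown first, in RefSeq mature form on GRCm38, with the seed (bases 2 to 8, which pair with targets) in capitals.
miR-322-5p: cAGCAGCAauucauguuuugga
miR-503-5p: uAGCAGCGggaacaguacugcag
The seeds of miR-322-5p and miR-503-5p are alike except in their last base. Of the members with an annotated 3' untranslated region, Igf2 alone held a match to the full miR-322-5p seed, and none held a match to the full miR-503-5p seed. The match in Igf2 was 2 overlapping copies that begin at base 1026 after the stop codon. It is shown here in capitals within a stretch of 30 bases, on the minus strand of GRCm38 at chr7:142652771-142652800.
Igf2 site: atctagtttcTGCTGCTGCTtattggctct
The miR-322-5p match TGCTGCT was present in 24.4% of the 13416 tested genes with a 3' untranslated region of at least 50 bases, and the miR-503-5p match CGCTGCT in 4.87%. A match is a description of the letters and not a measured binding site. Among the other imprinted genes described further on, a full miR-322-5p match was held by 3 of the 6 called lower (Peg10, Gab1 and Rasgrf1) and by none of the 4 called higher, and no gene of either group held a full miR-503-5p match. These few genes were counted after their calls were seen, and no test was made.

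Some members are themselves hosts of microRNAs. The H19 transcript contains miR-675 and the Igf2 gene contains miR-483, and both are shown because the hosts moved in opposite directions. All 4 mature strands lie on the minus strand of chromosome 7.
miR-675-5p: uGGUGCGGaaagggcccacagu
miR-675-3p: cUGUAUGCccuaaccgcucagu
miR-483-5p: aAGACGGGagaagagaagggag
miR-483-3p: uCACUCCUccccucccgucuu
None of these 4 shares a seed with the others or with the overexpressed pair. By annotated position, H19 held 1 microRNA gene, Igf2 1, Meg3 2, Rian 4 with 13 snoRNA genes, Mirg 15 and Mest 1. None of these small RNA genes passed the filter on low counts, and the highest count of any of them was 2, so mature microRNAs were not measured here. The same limit applies to the check of the overexpressed genes. The estimated counts of Mir322 were 1, 7 and 2 in the control and 17, 0 and 3 in the other group. Those of Mir503 were 1, 1 and 2 in the control and 6, 4 and 5 in the other group. These levels lie near or under the floor of 12 estimated counts used below, and they do not measure the mature products.

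The libraries held between 73532084 and 92157388 estimated counts. About 4 estimated counts stand for 1 read pair, and 12 counts, or 3 read pairs, were taken as the floor that a count of 0 allows. Intervals and floors cover counting error only. All 14 muscle markers were detected, and 8 were higher and 1 lower past an adjusted p of 0.05. The 2 called, both higher, were the transcription factor Mef2c, with a mean of 1.90 CPM in the control and 23.3 CPM with miR-322/-503 (log2 fold change 3.61, adjusted p = 2.23e-05), and Tnnt3, described below. Desmin (Des) had a log2 fold change of 0.65, and Myog, an early differentiation factor, one of -0.74 (adjusted p = 0.000665 by edgeR). Their summed level was 2650 to 2803 CPM (counts scaled to library size) in the control and 3405 to 3722 CPM in the miR-322/-503 libraries. The 8 fibroblast markers summed to 11589 to 12288 CPM in the control and 8638 to 8758 CPM in the miR-322/-503 libraries, with Tcf21 and Dpp4 at 0. This list was split, with 2 genes higher and 3 lower past the adjusted p. Most of the sum was Col3a1, which had a mean of 10027 CPM in the control and 5990 CPM with miR-322/-503, while Col1a1 (log2 fold change 0.53) and Dpt (0.94) were higher. The called gene of the list was Lum, with a mean of 29.5 CPM in the control and 3.21 CPM with miR-322/-503 (log2 fold change -3.19), and Pdgfra was lower too (-0.74). The adipocyte markers summed to 7.33 to 9.20 CPM in the control and 7.98 to 10.5 CPM with miR-322/-503, those of bone and cartilage to 117 to 123 and 123 to 135 CPM, those of endothelium to 1.03 to 1.30 and 3.75 to 5.07 CPM, and those of macrophages to 2.59 to 3.92 and 3.86 to 4.28 CPM. Adipoq, Fabp4, Ibsp, Acan, Emcn and Adgre1 were at 0, while other genes of these lists were expressed. Means in the control and with miR-322/-503 were 61.3 and 56.8 CPM for Runx2 and 8.26 and 9.36 CPM for Pparg. Those of Sox9 were 58.3 and 72.0 CPM (log2 fold change 0.30, adjusted p = 0.0254 by edgeR). Of the endothelial markers, Tek made up nearly all of the sum, and the other 4 were at or under the floor everywhere. The part of these marker differences in the results for H19, Igf2 and the other members was not tested. In these bulk samples, fewer cells that express a gene and less RNA per cell cannot be told apart.

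With miR-322/-503, H19 rose and Igf2 fell, and these were the members with the firmest differences. Grb10 was called higher, but no control library exceeded the floor, it passed the filter on low counts through the miR-322/-503 libraries, and the call was lost whichever library was left out. Peg3 was higher in 2 of the 3 miR-322/-503 libraries and did not pass the test. Mest did not pass the test. Dlk1, Meg3, Rian, Mirg and Plagl1 were at or near 0 and were not tested. A gene was called when the adjusted p of edgeR's quasi-likelihood test was under 0.05 and the log2 fold change exceeded 1 in size. By that rule 3 of the 5 members tested were called, 2 higher and 1 lower. Without Grb10, which was tested only because of its miR-322/-503 libraries, the called members were H19 and Igf2. Over all 18140 genes tested, 9.87% were called, 4.59% higher and 5.29% lower. An adjusted p under 0.05 alone was reached by the same 3 members and by 28.8% of all genes tested. The groups did not overlap for 3 members tested, against 45.1% of all genes tested. The members that passed the filter on low counts are few, and these shares are given as a description.

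**Figure D1:**
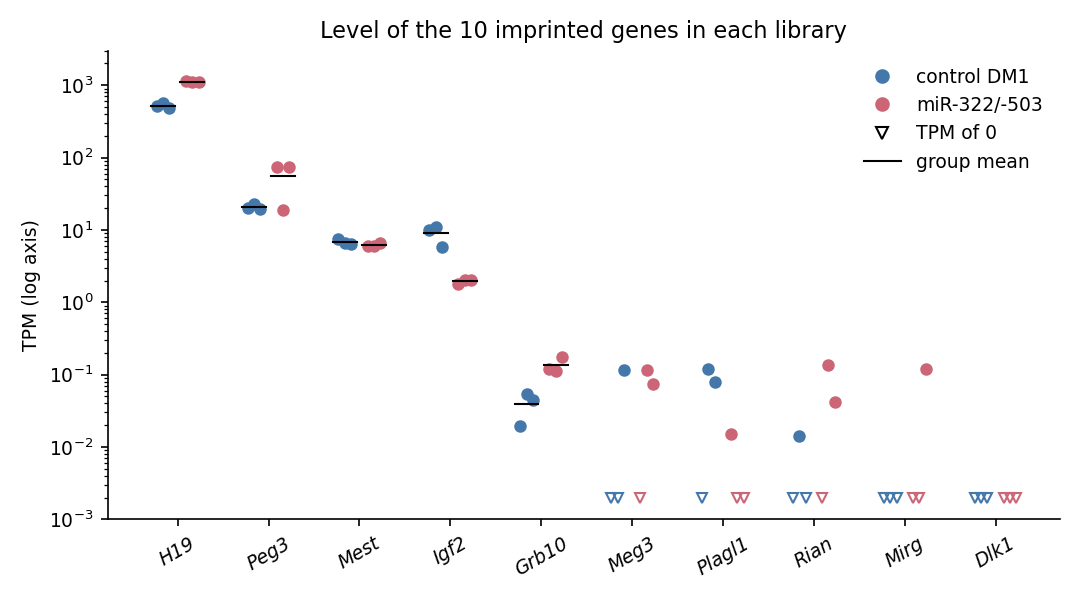
Level of the 10 imprinted genes in TPM (a level scaled to transcript length and library size, log axis) in each of 3 control libraries and 3 miR-322/-503 libraries. Points are libraries, black lines are means of groups with no value at 0, and open triangles mark a TPM of 0. H19 stands above every other member in every library, Igf2 is lower and H19 higher with miR-322/-503, and 1 miR-322/-503 library of Peg3 lies with the control.

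H19 (ENSMUSG00000000031), a long noncoding RNA that is abundant in differentiating muscle, lies on the minus strand of chromosome 7 of GRCm38 from 142575529 to 142578143. It had 45215, 53820 and 47078 estimated counts in the control libraries and 127249, 94602 and 102581 in the miR-322/-503 libraries. Every miR-322/-503 library was above every control library. The mean level was 598 ± 48.6 CPM (SD, n = 3) in the control and 1320 ± 52.8 CPM with miR-322/-503. This was a log2 fold change of 1.14 (SE 0.0716, adjusted p = 3.14e-05 by edgeR). Per length, H19 rose from 518 ± 40.0 to 1119 ± 28.7 TPM, and its place among all genes ordered by mean TPM moved from 246 to 93. The ratio of counts to coverage gives the mean transcript length over which the reads were counted. For H19 it was between 2181 and 2230 bases in all 6 libraries, beside 2286 bases for the longest annotated transcript, H19-202.

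Igf2 (ENSMUSG00000048583) lies on the same strand from 142650766 to 142666816, its start 75.2 kb from that of H19 in chromosome order. It had 1489, 1792 and 1090 estimated counts in the control libraries and 324, 296 and 315 in the miR-322/-503 libraries. The lowest control library was more than 3 times the highest miR-322/-503 library. The mean was 18.0 ± 4.54 CPM (SD, n = 3) in the control and 3.84 ± 0.405 CPM with miR-322/-503, or 4.67-fold lower. The log2 fold change was -2.22 (SE 0.20, adjusted p = 0.000198 by edgeR). In TPM, the control libraries had 9.99, 11.0 and 5.82 and the miR-322/-503 libraries had 1.76, 2.04 and 2.03. Control replicate 3 was the lowest control library on both scales. Without it the log2 fold change was -2.41. The length over which Igf2 reads were counted was between 3680 and 3714 bases in 5 libraries and 4192 bases in control replicate 3, beside 3708 bases for the annotated transcript Igf2-201, 3970 for Igf2-204 and 4722 for Igf2-205. Igf2 overlaps the antisense gene Igf2os over 7124 bases, and whether the authors counted by strand is not given in the sources used here. Igf2os had at most 55 counts in any library. On the same strand, the predicted gene Gm49394 overlaps Igf2 over 16048 bases and had 0, 9 and 15 counts in the control and 68, 9 and 0 with miR-322/-503, so the split of reads between these 2 genes is uncertain.

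H19 and Igf2 moved in opposite directions. The ratio of H19 to Igf2 in TPM was 51.0, 50.9 and 83.0 in the control libraries and 653, 539 and 542 in the miR-322/-503 libraries. The groups did not overlap. The mean log2 ratio was 5.91 ± 0.41 in the control and 9.17 ± 0.16 with miR-322/-503, a difference of 3.26, or 9.60-fold. The 2-sided exact permutation test gave p = 0.1, the smallest that 3 against 3 libraries allow. In CPM the difference of the log2 ratios was 3.34.

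**Figure D2:**
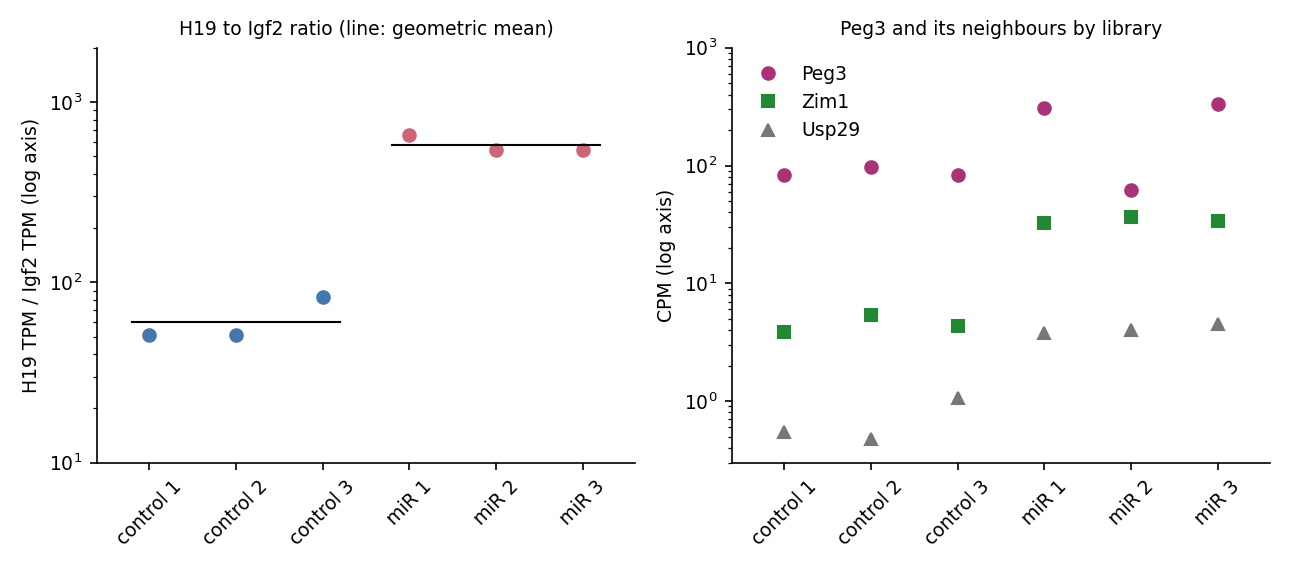
Left, the ratio of H19 to Igf2 in TPM (log axis) in each library, with the geometric mean of each group as a line. Right, the level of Peg3, Zim1 and Usp29 in CPM (log axis) in the same libraries. The ratio is 50.9 to 83.0 in the control and 539 to 653 with miR-322/-503, and Peg3 is low in miR-322/-503 replicate 2 while Zim1 and Usp29 are not.

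Of the neighbours of H19 and Igf2, those on the far side of H19 include muscle genes. Within 250 kb of H19, 11 genes that are not members were tested. Of these, 3 were called higher and none lower by edgeR, beside 4.59% called higher over all genes. Among the 9 with a library over the floor in each group, 2 were called, or 22.2%, beside 8.49% of all such genes. This leaves out Gm33148 and Nctc1. In all, 6 of the 11 passed the adjusted p, all of them higher, beside 2401 of all 18140 genes tested that passed it higher. Tnni2, a fast troponin I, had a log2 fold change of 1.12 (SE 0.0858, adjusted p = 8.28e-05), and Tnnt3, a fast troponin T, one of 1.04 (SE 0.10, adjusted p = 0.000297). Their starts lie 134 and 76.7 kb from that of H19 in chromosome order, on the side away from Igf2. The third called neighbour, the predicted gene Gm33148 between H19 and Igf2, had 4, 4 and 7 counts in the control and 95, 71 and 125 with miR-322/-503. No control library exceeded the floor, and the gene passed the filter through the miR-322/-503 libraries. About 4 read pairs stood against 73, a ratio of 18.2 with a counting interval from 6.80 to 68.5, and the adjusted p of edgeR was 0.000320. Mrpl23 and Ctsd, on the same side of H19 as the troponin genes, had log2 fold changes of -0.08 and 0.01. Both were named after their values were seen, to show that not all genes near H19 differed. The 83 tested genes within 2000 kb of H19 had a median log2 fold change of 0.17, and those of chromosome 7 as a whole one of 0.01.

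**Figure D3:**
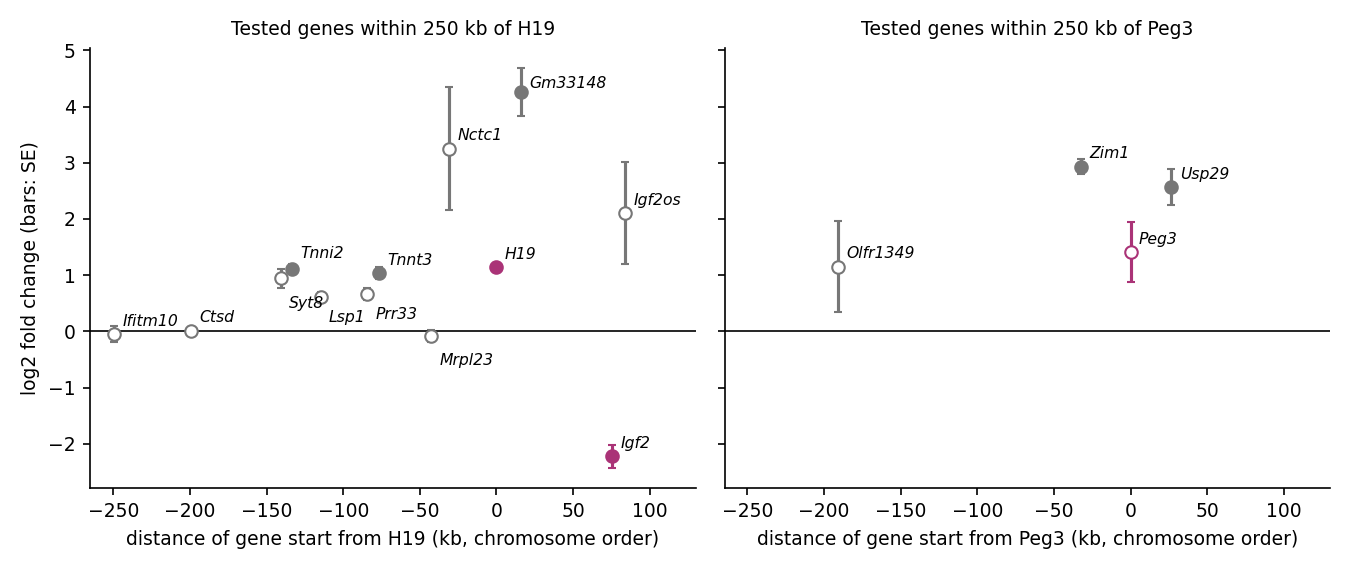
Log2 fold change (miR-322/-503 over control) of tested genes within 250 kb of H19 (left) and of Peg3 (right), against the distance of the gene start in kb in chromosome order. Purple points are members, filled points were called and bars are the SE; Gm33148 had no control library over the floor. Igf2 at -2.22 is the one point below -1 in the left panel, and Zim1 and Usp29 lie above Peg3 in the right panel.

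Peg3 (ENSMUSG00000002265), a paternally expressed zinc finger protein gene, lies on the minus strand of chromosome 7 from 6703892 to 6730431. It had 6490, 8067 and 6970 estimated counts in the control libraries and 29270, 4680 and 25006 in the miR-322/-503 libraries. Replicates 1 and 3 of miR-322/-503 were above all control libraries and replicate 2 was below them, so the groups overlapped. The mean was 88.0 ± 8.39 CPM (SD, n = 3) in the control and 234 ± 149 CPM with miR-322/-503. The log2 fold change was 1.41 (SE 0.53, adjusted p = 0.0884 by edgeR). Without miR-322/-503 replicate 2 the log2 fold change was 1.86 (adjusted p = 8.44e-05). In TPM, replicate 2 had 18.99, beside 73.8 and 73.5 in the other miR-322/-503 libraries and 19.6 to 22.8 in the control. The length over which Peg3 reads were counted was 6297 bases in that library and between 7963 and 8092 bases in the other 5, beside 8694 bases for the annotated transcript Peg3-201. Among 10213 genes with enough counts, 12 were at least 3-fold under both other libraries of their group in miR-322/-503 replicate 2, Peg3 among them, and 99 such cases were found over all 6 libraries.

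The neighbours of Peg3 did not share the low value of replicate 2. Usp29, a paternally expressed gene that starts beside Peg3 and is read the other way, had 42, 39 and 90 counts in the control and 361, 301 and 341 with miR-322/-503, a log2 fold change of 2.56 (SE 0.32, adjusted p = 0.000938). Zim1, a maternally expressed zinc finger gene on the other side of Peg3, had 300, 440 and 366 counts in the control and 3121, 2729 and 2563 with miR-322/-503, a log2 fold change of 2.93 (SE 0.13, adjusted p = 7.47e-06). For both genes every miR-322/-503 library was above every control library. The third tested neighbour within 250 kb, Olfr1349, did not pass the test. The interval between the starts of Peg3 and Usp29 is shown because the 2 genes share it. It spans 146 bases on GRCm38 at chr7:6730432-6730577, is written on the minus strand towards Peg3, and has its 5 CG pairs, the letters that carry methylation, in capitals.
Peg3-Usp29 interval: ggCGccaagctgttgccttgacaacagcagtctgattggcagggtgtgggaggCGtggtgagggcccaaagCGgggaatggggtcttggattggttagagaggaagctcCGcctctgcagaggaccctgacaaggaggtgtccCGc
Its G and C content was 61.6%. No methylation was measured in these libraries.

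Grb10 (ENSMUSG00000020176), an adaptor protein that dampens signalling from the insulin and IGF receptors, lies on the minus strand of chromosome 11 from 11930508 to 12038683. It had 5, 12 and 10 estimated counts in the control libraries and 31, 23 and 38 in the miR-322/-503 libraries. The groups did not overlap, and no control library exceeded the floor of 12 counts. The log2 fold change was 1.77 (SE 0.50, adjusted p = 0.0346 by edgeR). In read pairs this was about 7 against 23, a ratio of 3.27 after scaling for library size with a 95% Clopper-Pearson counting interval from 1.36 to 9.03. Grb10 was called under 2 of 13 alternatives that tested it, and its adjusted p was 0.0518 with DESeq2.

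Mest (ENSMUSG00000051855), a paternally expressed gene of the hydrolase fold family, lies on the plus strand of chromosome 6 from 30723547 to 30748465. It had 685, 664 and 641 estimated counts in the control libraries and 668, 516 and 591 in the miR-322/-503 libraries. The level was 8.16 ± 0.64 CPM (SD, n = 3) in the control and 7.25 ± 0.53 CPM with miR-322/-503, and the log2 fold change of -0.17 (SE 0.11, adjusted p = 0.310 by edgeR) did not pass the test. Mest overlaps the antisense gene Copg2 over 912 bases. Copg2 had between 4062 and 6477 counts and was higher with miR-322/-503 (log2 fold change 0.32, adjusted p = 0.0140). With the strand setting unknown, reads of the 2 genes in the overlap cannot be told apart. Of 4 tested genes within 250 kb of Mest, 1 was called, the carboxypeptidase gene Cpa4, with 277, 304 and 362 counts in the control and 957, 703 and 788 with miR-322/-503 (log2 fold change 1.37, SE 0.12, adjusted p = 0.000156).

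The 4 members of the Dlk1-Meg3 domain of chromosome 12 were hardly detected. Dlk1 (ENSMUSG00000040856), a membrane protein of the Delta family, had 0 counts in all 6 libraries, where a count of 0 allows up to 12 estimated counts in each. The maternally expressed noncoding RNA Meg3 (ENSMUSG00000021268) had 0, 0 and 4 counts in the control and 0, 6 and 11 with miR-322/-503. Rian (ENSMUSG00000097451), host of snoRNAs, had 0, 3 and 0 counts in the control and 0, 16 and 7 with miR-322/-503, and the microRNA host Mirg (ENSMUSG00000097391) had 5 counts in 1 miR-322/-503 library and 0 in the others. The 3 genes Dlk1, Meg3 and Mirg were at or under the floor everywhere. No difference was detectable at this depth, and no ratio within the domain could be computed in all libraries because of values at 0. Plagl1 (ENSMUSG00000019817), a zinc finger transcription factor of chromosome 10 known to regulate other genes of this network, had 0, 28 and 19 counts in the control and 4, 0 and 0 with miR-322/-503. The groups overlapped at 0, the filter removed the gene, and about 12 read pairs stood against 1, a ratio of 12.1 lower with miR-322/-503 and a counting interval from 1.78 to 515.

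Between members, levels were ordered per length in TPM. In the control the order was H19 at 518, Peg3 at 20.8, Igf2 at 8.95 ± 2.76 and Mest at 6.81 ± 0.51, with Igf2 and Mest overlapping between libraries. With miR-322/-503 it was H19 at 1119, Peg3 at 55.4 ± 31.5, Mest at 6.24 ± 0.35 and Igf2 at 1.95 ± 0.16, and Igf2 no longer overlapped Mest. All other members stayed under 0.2 TPM in every library.

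The RefSeq promoter windows of the members, from 250 bases before to 50 after the start, were searched on both strands for 2 motifs, neither of which contains the other. A window was given for 9 of the 10 members, 16 windows in all. The myogenic E-box core CAGCTG was found in 1 window, of Mest, and in 16.3% of the 32851 windows of all genes. The Plagl1 core motif GGGGCCCC was found in 1 window, of Peg3, and in 1.08% of all windows. The Usp29 window overlaps that of Peg3 and held the motif too, outside the interval printed above.

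Other imprinted genes were compared with the members by 2 lists. Of the 8 other genes of the growth network, 6 were tested, 1 was called higher and 1 lower, and the median log2 fold change was -0.03. Gatm, the enzyme of the first step of creatine synthesis, had 2224, 2332 and 2274 counts in the control and 10424, 7633 and 8206 with miR-322/-503. Its mean rose from 28.0 ± 0.93 to 107 ± 4.30 CPM. The log2 fold change was 1.93 (SE 0.0592, adjusted p = 1.65e-06 by edgeR). Cdkn1c, the cell cycle inhibitor p57, which lies on chromosome 7 from 143458339 to 143461050, had 205, 308 and 271 counts in the control and 5, 0 and 4 with miR-322/-503. In read pairs this was about 196 against 2, a ratio of 98.4 lower with miR-322/-503 and a counting interval from 26.9 to 819. Igf2r, the receptor that clears Igf2 from the cell surface, had a log2 fold change of -0.47 (SE 0.0551, adjusted p = 0.000696). It passed the adjusted p and not the limit on size, and was named after its values were seen.

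Of 48 further imprinted genes found, some of them imprinted only in certain tissues, 30 were tested, 3 were called higher and 5 lower, with a median log2 fold change of 0.15 wherever above it Zdbf2, at 0 in the control, is placed. Over both lists, 10 of 36 tested genes, or 27.8%, were called, beside 9.87% of all genes tested. Past the adjusted p, 10 of the 36 were higher and 10 lower, beside 2401 higher and 2817 lower of all 18140 genes tested. Of the 10 called genes, Cdkn1c, Begain, Rasgrf1 and Zdbf2 had 1 group with no library over the floor and passed the filter through the other group. Among the 31 tested genes with a library over the floor in each group, 6 were called, or 19.4%, beside 8.49% of all such genes. Zim1 and Usp29 are described above. Zdbf2, a zinc finger gene of chromosome 1, had 0 counts in every control library and 20, 15 and 46 with miR-322/-503, through which it passed the filter. Begain, on chromosome 12 outside the span of Dlk1 to Mirg, had 77, 67 and 83 counts in the control and 6, 10 and 8 with miR-322/-503, about 57 read pairs against 6, a ratio of 9.54 lower with a counting interval from 4.12 to 27.1. Rasgrf1 had about 16 read pairs in the control and 1 with miR-322/-503 and was called under 4 of 15 alternatives. Peg10, a retrotransposon-derived gene named after its values were seen, was the called gene of this list with the highest level, and fell from 208 ± 16.4 to 57.5 ± 0.67 CPM. Its log2 fold change was -1.85 (SE 0.0703, adjusted p = 3.90e-06). The other 2 called genes, also named after their values were seen, were Slc22a18 at -2.56 and Gab1 at -1.07, and the 21 tested genes within 2000 kb of Gab1 had a median of -0.69.

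**Figure D4:**
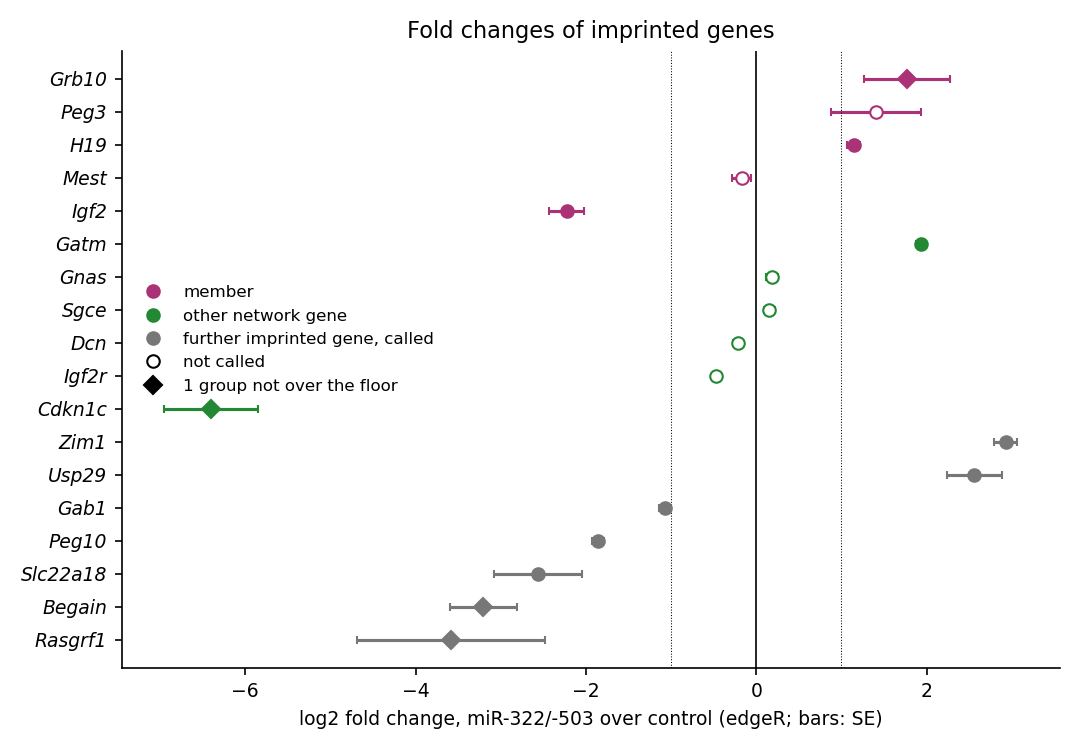
Log2 fold change (miR-322/-503 over control, edgeR) with its SE for the 5 tested members, the 6 tested other network genes and 7 of the 8 called further imprinted genes. Filled points were called, dotted lines mark -1 and 1, Zdbf2 is left out because its control libraries were all at 0, and diamonds mark genes with no library over the floor in 1 group, whose fitted values depend on very few reads. Members lie on both sides of 0, from Igf2 at -2.22 to H19 at 1.14 among those called and over the floor in both groups.

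Of 22 genes that receive or relay the Igf2 signal, 21 were tested, 1 was called higher and 1 lower, or 9.52% beside 9.87% of all genes. Past the adjusted p were 5 higher and 6 lower of the 21, beside 28.8% of all genes in either direction. Igf2bp2, which binds Igf2 mRNA among others, had 780, 861 and 506 counts in the control and 2473, 1903 and 2291 with miR-322/-503, a log2 fold change of 1.63 (SE 0.21, adjusted p = 0.00109). Irs2, an adaptor of the insulin and IGF receptors, had 899, 1126 and 1236 counts in the control and 476, 366 and 269 with miR-322/-503, a log2 fold change of -1.57 (SE 0.16, adjusted p = 0.000356). Igf1r, the receptor through which Igf2 signals, and Irs1 were named after their values were seen. Their log2 fold changes were -0.24 (adjusted p = 0.0299) and 0.48 (adjusted p = 0.000780), both under the limit on size.

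Of 19 genes that set, keep or erase imprints, 16 were tested and 0 were called by edgeR, by DESeq2 or by limma. At an unadjusted p under 0.05 there were 7, or 43.8% beside 39.6% of all genes tested. Past the adjusted p 1 was higher and 3 were lower, or 25.0% beside 28.8% of all genes. The 4 genes past the adjusted p had log2 fold changes of -0.63 for the demethylating enzyme Tet1, -0.31 for the zinc finger protein Zfp445, -0.20 for the maintenance methyltransferase Dnmt1 and 0.24 for the methyltransferase Dnmt3a. They were named because they are so few. Zfp445 and Dnmt1 lie on chromosome 9, whose tested genes other than Rasgrf1 had a median log2 fold change of -0.27. Ctcf had a log2 fold change of 0.02 (SE 0.0692).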

How the data were processed

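RNA-seq of 3 control and 3 miR-322/-503 overexpressing DM1 libraries was analysed. The submitters' processing notes name Trim Galore, HISAT2, GRCm38 and StringTie. Versions, annotation and strand setting were not given in the sources used here. The authors deposited an unnormalized table of whole-number estimated counts, and per library a coverage signal, FPKM and TPM. FPKM was not tested. Estimated counts were tested with edgeR 4.0.16 in R 4.3.3 (filterByExpr, TMM factors, the quasi-likelihood functions glmQLFit and glmQLFTest, and Benjamini-Hochberg adjusted p over 18140 genes). The SE is the log2 fold change divided by the square root of F. DESeq2 1.42.0, limma 3.58.1 on log2(TPM + 1) and log2(TPM + 0.1), other normalizations and filters, counts divided by 4, a replicate block and leaving out each library were alternatives. The fits were tested on simulated data. Same-numbered libraries were not paired (r = 0.13, 0.0687 and 0.0451). Transcripts came from GENCODE M21, where 55154 of the 55421 identifiers were found, and microRNAs and promoters from RefSeq (GRCm38.p6). The members and lists were chosen with earlier results of these data known. Named were all members, the called genes of each of the 4 lists other than the markers (at most the 5 with the largest change) and the called neighbours within 250 kb. Other genes named, beside overlapping genes and cell type markers, were chosen after their values were seen.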

Additional observations from a re-analysis of the deposited data

How the results depend on the processing

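The direction of no tested member changed under the alternatives, and H19 and Igf2 were called under all 15, with log2 fold changes from 1.09 to 1.21 and from -2.41 to -1.71. The count of members called higher dropped from 2 to 1 with DESeq2, without a filter, with a filter of 10 counts per library, with counts per read pair, with limma on log2(TPM + 1) or log2(TPM + 0.1), and with the replicate block. In each of these H19 remained and Grb10 did not. The block fits libraries by a number they share without evidence of pairing, and it gave Grb10 an adjusted p of 0.0660. Leaving out each library gave 1 to 2 members called higher and 1 called lower, and the 2 without miR-322/-503 replicate 2 included Peg3 (log2 fold change 1.86). Grb10 lost its call whichever library was left out. Of the other network genes, 1 was called lower, but 0 under the filter of 10 counts per library, since Cdkn1c was then not tested. Of the further imprinted genes, 5 were called lower, 2 under the filter of 10 counts per library and 3 with limma on log2(TPM + 1). Leaving out each library gave 4 to 5 lower and 3 to 4 higher among them, and 1 to 2 higher among the genes of the Igf2 signal, with 2 without control replicate 3 and without miR-322/-503 replicate 2. The difference of the log2 ratio of H19 to Igf2 lay between 3.15 and 3.50. The median log2 fold change of all genes stayed between -0.03 and 0.04. Depth limits the statements on Grb10, Plagl1, Meg3, Rian, Mirg and Dlk1, which had at most 38 counts in a library.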
